A study of Mus musculus with 32 samples.

Results

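The genes described here encode enzymes of heme synthesis, and 8 of them were measured: Alas1, Alas2, Alad, Uros, Urod, Cpox, Ppox and Fech, of 18194 genes in all. Each gene is represented by the probe set that names it alone and has its highest mean over all arrays. The study asked how regenerating liver resembles developing liver, and hybridised CD-1 mouse liver RNA to Affymetrix Mouse Genome 430 2.0 arrays. The adult groups were liver of unoperated 10-week-old females (time 0) and liver after partial hepatectomy, the surgical removal of 2/3 of the organ: early (1, 2 and 6 h), in the middle (12, 18, 24 and 30 h) and late (48 and 72 h). The embryonic groups were liver at each day from 10.5 to 14.5 days post conception, and at 16.5 days. Each of the 16 groups had 2 arrays, which gave 20 adult and 12 embryonic arrays, and each array held RNA pooled from at least 3 tissues. There was no sham-operated group, so effects of the operation and of the loss of tissue cannot be told apart. The labels say only that the pools are separate, and the p-values therefore rest on differences among pools.

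Heme is made from glycine and succinyl-CoA in a chain of reactions that starts and ends in the mitochondrion. The first step, 5-aminolevulinate synthase, exists as a housekeeping isozyme, Alas1, which limits heme synthesis in the hepatocyte and is repressed by heme, and as an erythroid isozyme, Alas2, which supplies red cell precursors and is held back at low iron by an iron-responsive element in its mRNA. Embryonic liver is the main site of red cell formation in mid gestation, while adult liver uses most of its heme for cytochromes P450.

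Of the 8 genes, 7 had an entry in the RefSeq promoter table (GRCm38.p6), with 10 annotated starts in all. The letters GATA with A or T before them and A or G after them, on either strand, were searched as the motif of GATA factors such as Gata1, and CACCC, on either strand, as the motif of factors such as Klf1. In the 250 bases before a start, the GATA letters were found in 26.5% of 32851 promoters and CACCC in 52.0%. They are shown for both isozymes of the first step and for Cpox and Uros, the other members in which GATA letters were found, with the matches in capitals, 5′ to 3′ on the strand of the gene.
Alas1, first start, chr9:106247955-106248204, minus strand: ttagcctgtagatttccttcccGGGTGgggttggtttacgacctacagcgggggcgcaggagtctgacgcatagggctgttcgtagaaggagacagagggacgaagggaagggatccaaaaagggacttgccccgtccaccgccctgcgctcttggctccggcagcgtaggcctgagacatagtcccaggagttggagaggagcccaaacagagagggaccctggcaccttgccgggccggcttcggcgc
Alas2, chrX:150547167-150547416, plus strand: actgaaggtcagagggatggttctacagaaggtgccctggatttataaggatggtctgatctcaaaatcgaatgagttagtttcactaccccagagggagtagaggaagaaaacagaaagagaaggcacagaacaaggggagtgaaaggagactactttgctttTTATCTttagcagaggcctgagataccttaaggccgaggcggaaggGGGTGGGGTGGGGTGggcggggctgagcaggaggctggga
Cpox, chr16:58669958-58670207, plus strand: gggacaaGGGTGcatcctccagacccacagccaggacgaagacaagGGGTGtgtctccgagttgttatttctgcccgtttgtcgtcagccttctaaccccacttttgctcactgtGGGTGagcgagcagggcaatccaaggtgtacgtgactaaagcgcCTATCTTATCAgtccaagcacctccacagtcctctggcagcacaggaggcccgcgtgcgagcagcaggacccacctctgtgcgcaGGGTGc
Uros, second start, chr7:133702501-133702750, minus strand: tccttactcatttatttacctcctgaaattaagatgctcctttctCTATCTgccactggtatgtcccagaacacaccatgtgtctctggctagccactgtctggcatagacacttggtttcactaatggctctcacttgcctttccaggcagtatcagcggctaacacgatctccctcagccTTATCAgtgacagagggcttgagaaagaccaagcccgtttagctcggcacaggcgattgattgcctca
The window before Alas2 held 1 GATA match, 86 to 81 bases before the start, and 3 neighbouring CACCC matches between 40 and 26 bases before it. At least 3 CACCC matches were found in 6.92% of promoters. The Cpox window held 2 GATA matches that share 1 base, between 91 and 81 bases before the start, and 4 CACCC matches, a number reached by 2.14% of promoters. The Uros window held 2 GATA matches and no CACCC. Each of the 2 Alas1 starts had 1 CACCC match and no GATA match. Besides these, CACCC was found once before the second Alad start. Ppox, Urod, the first Uros start and the first Alad start had neither in this window. These matches describe letters and were not tested as binding sites.

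Array medians lay between 69.8 and 79.5 intensity units, and 2.54% to 4.02% of values on an array were below 0. The 48 h, 10.5 day and 12 h pairs of arrays differed most, with an SD of the difference between arrays of 0.748, 0.535 and 0.501 (log2) over all genes, against 0.287 to 0.436 in the other groups. The log2 ratio of the 3′ to the 5′ Gapdh control probe sets, a measure of RNA quality, was 1.22 on the second 48 h array, 1.49 on the first 10.5 day array, 0.30 on the second 12 h array and 0.32 on the second 2 h array, and at most 0.20 on the others. The same ratio for the Actb control probe sets was 0.57 to 2.42 on adult arrays and 0.33 to 0.90 on embryonic arrays. The highest Actb ratios were thus adult, and the part of this difference in the results was not tested. Of 20 measured erythroid marker genes, 18 were higher in the embryo than at time 0 and 0 were lower. Their summed intensity was 1197 to 1715 on adult arrays, 21200 to 21230 at 10.5 days and 35010 to 37790 at 12.5 days. The summed intensity of 13 hepatocyte markers was 33920 to 78130 on adult arrays and rose from 10170 to 10620 at 10.5 days to 31840 to 32440 at 16.5 days. The tissue labels of both sets were thus met by their markers. Afp, a protein of fetal liver, was 4525 or more on each embryonic array and at most 27.84 on an adult one. Alb was 7276 or more on each adult array but did not separate the sets. Its group means were 7834 at time 0, 1249 at 10.5 days, 8279 at 12.5 days and 8673 at 16.5 days (embryo against time 0 -0.41, adjusted p = 0.114, limma). On the probe sets used, the adult alpha globins Hba-a1 (38.81 to 140.9 on all arrays) and Hba-a2 (4.458 to 37.18) did not separate the sets. The 932 probe sets that name several genes were left out, so these values need not cover all alpha globin RNA. Hbb-b2, a beta globin, had group means of 63.77 at time 0 and 2960 at 16.5 days. Because whole tissue was measured, fewer cells of a type and less RNA per cell cannot be told apart in any result that follows.

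On the probe sets used, embryonic liver had more RNA of 7 of the 8 enzymes than unoperated adult liver, and less of the eighth, Alas1. The change was largest for the erythroid Alas2, which rose 12.5-fold in the mean of the 6 stages. All 8 changes passed the test (moderated test of limma, Benjamini-Hochberg adjusted p under 0.05 over all genes), in a comparison in which 55.7% of all genes did so. Raised genes made up 30.9% of all genes and lowered genes 24.8%. Probe sets not used here did not all rise: those of Alad (0.28) and Ppox (-0.49 and 0.21) and 1 of Fech (0.11) did not pass. Log2 changes refer to log2(intensity + 16), so a change is understated where intensity is low.

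**Figure D1:**
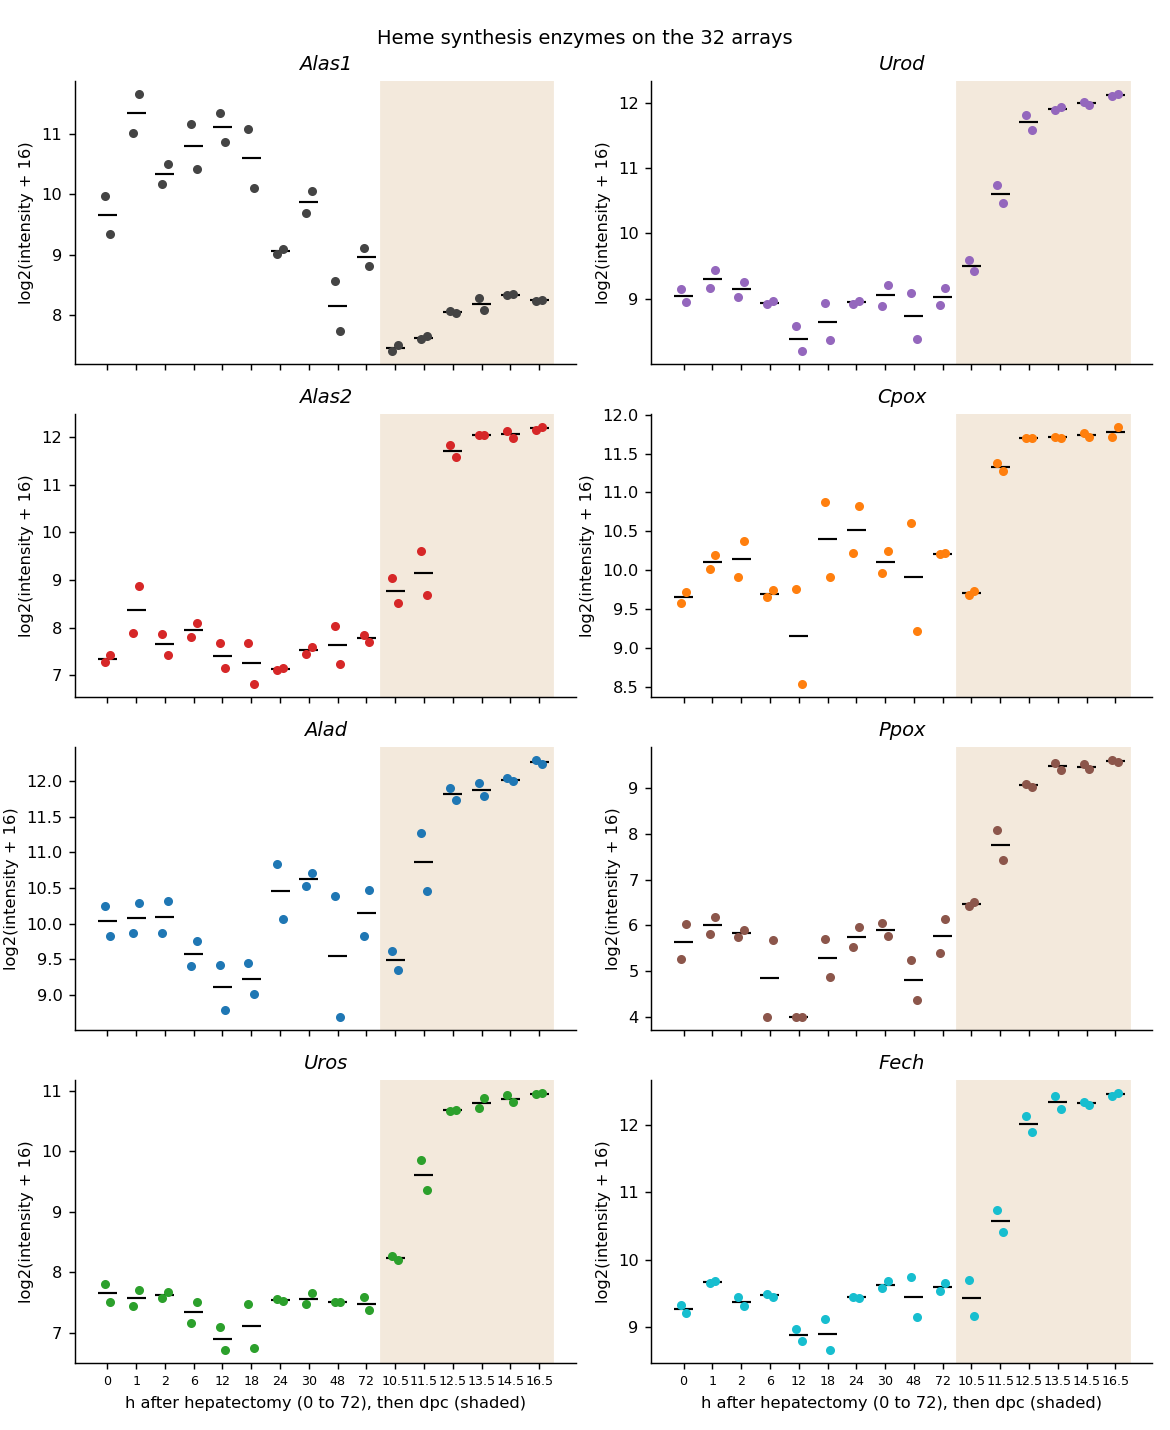
Each panel shows 1 gene, with log2(intensity + 16) on the vertical axis and the 10 adult times and 6 embryonic stages (days post conception, dpc, shaded) on the horizontal axis. Points are single arrays and bars are group means; in 7 panels each array from 12.5 to 16.5 days lies above the 20 adult arrays, and in the Alas1 panel the highest points are adult. Ppox values below 0 appear at 4, the log2 of 16.

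The first step showed opposite changes in its isozymes. Alas2 intensity was 138.5 and 156.4 on the time 0 arrays, and its 20 adult values ran from 97.2 to 450.9 with a median of 182.6. In the embryo it was 509.6 and 350.3 at 10.5 days, 763.6 and 396.3 at 11.5 days, 3646 and 3066 at 12.5 days, 4220 and 4208 at 13.5 days, 4486 and 4049 at 14.5 days, and 4560 and 4745 at 16.5 days. Only the 10.5 and 11.5 day arrays came near the adult ones, and 2 of those 4 values, 350.3 and 396.3, lay below the highest adult value. The mean of the stages was higher than time 0 by 3.64 ± 0.25 (log2, SE; adjusted p = 7.83e-11, limma) and higher than 48 to 72 h by 3.28 ± 0.19 (adjusted p = 2.23e-12, limma).

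Alas1 intensity was 987 and 632.9 at time 0. In the embryo it was 153.7 and 165.1 at 10.5 days, 178.4 and 185.2 at 11.5 days, 251.3 and 246.8 at 12.5 days, 297.3 and 256.8 at 13.5 days, 307.3 and 309.3 at 14.5 days, and 283.8 and 290.1 at 16.5 days. All 12 embryonic values were below both time 0 values, but 1 adult array, the second of 48 h at 197.6, lay within the embryonic range. Alas1 was lower in the embryo than at time 0 by a log2 change of -1.67 ± 0.24 (3.19-fold; adjusted p = 4.19e-06, limma), and lower than at 48 to 72 h by a log2 change of -0.57 ± 0.18 (1.49-fold; adjusted p = 0.00899, limma). The second call was lost without the first 48 h array (-0.36, adjusted p = 0.106) without the first 72 h array (-0.50, adjusted p = 0.0545) and with array weights (adjusted p = 0.0617).

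**Figure D2:**
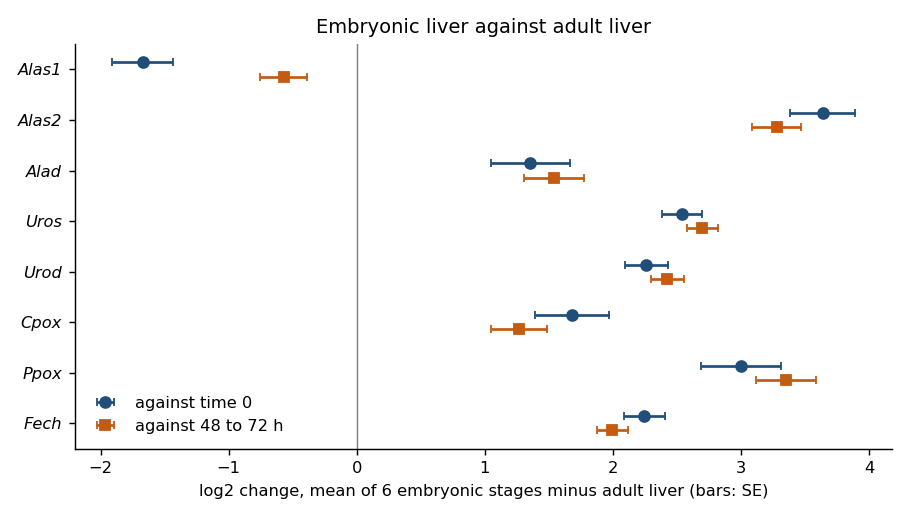
Circles set the average of the 6 embryonic stages against time 0, and squares set it against 48 to 72 h after hepatectomy, as a log2 change for each enzyme with bars for the SE. Alas1 lies below 0 in both comparisons, and the other 7 genes lie above it in both.

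The difference between log2 Alas2 and log2 Alas1 was used to follow the isozymes together; its zero depends on the probe sets, so only its changes are read. It rose by 5.39 from the 10 adult group means (mean -2.38, SD 0.97) to the 6 embryonic ones (mean 3.00, SD 1.23). The groups did not overlap, with adult values from -3.70 at 12 h to -0.51 at 48 h and embryonic values from 1.32 at 10.5 days to 3.95 at 16.5 days. An exact two-sided permutation test over the 16 group means gave p = 0.00025, the smallest that the 8008 arrangements allow. The groups are different times and stages, not replicates of adult and embryo. This p-value therefore describes only how fully these groups separate. Within the embryo the slope was 0.47 per day, with an exact permutation p = 0.05 over 720 orders of the stages, which is not under the threshold of 0.05 (smallest possible 0.00278).

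The enzymes of the middle of the chain were all raised in the embryo on the probe sets used. Alad, which joins 2 molecules of 5-aminolevulinate into porphobilinogen, was 1196 and 890.4 at time 0, 766.4 and 638.8 at 10.5 days, and 5012 and 4815 at 16.5 days. Its mean over the stages was 2.56-fold above time 0 (1.35 ± 0.31, adjusted p = 0.000784, limma), although both 10.5 day values were below both time 0 values. The change was 1.64-fold after quantile normalization (adjusted p = 0.0216, limma).

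Uros, which closes the tetrapyrrole ring as uroporphyrinogen III, was 207.3 and 165.3 at time 0, 292.1 and 279.7 at 10.5 days, and 1952 and 1983 at 16.5 days. Each embryonic array was above each of the 20 adult arrays, which ran from 89.15 to 207.3. The mean of the stages was 5.81-fold above time 0 (2.54 ± 0.16, adjusted p = 1.11e-11, limma). Urod, which removes carboxyl groups from the side chains of the ring, was 553 and 475.9 at time 0, 753.6 and 671.5 at 10.5 days, and 4377 and 4495 at 16.5 days. One 10.5 day value, 671.5, lay under the highest adult value of 677.2, and the mean of the stages was 4.79-fold above time 0 (2.26 ± 0.17, adjusted p = 2.56e-10, limma).

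The last 3 enzymes work in or at the mitochondrion. Cpox, which oxidises coproporphyrinogen, was 744.8 and 829.5 at time 0, 806.8 and 831.5 at 10.5 days, and 3327 and 3659 at 16.5 days, and was 3.20-fold higher over the stages (1.68 ± 0.29, adjusted p = 3.81e-05, limma). At 10.5 days Cpox lay within the adult range of 354.8 to 1867, and from 11.5 days all its values were above that range. Ppox, which makes protoporphyrin, was 22.2 and 49.53 at time 0, 69.39 and 76.03 at 10.5 days, and 773.9 and 744.2 at 16.5 days. On the probe set used, each embryonic Ppox value was above each adult value, of which the highest was 57.19.

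The size of the Ppox change depends on the constant added to these low values. It was 8-fold (3.00 ± 0.31, adjusted p = 3.77e-08, limma) with 16, 10.2-fold with 4 and 4.71-fold with 64. As the mean of all Ppox probe sets it was 1.88-fold (adjusted p = 2.03e-06, limma). Fech, which inserts iron into protoporphyrin to give heme, was 628.3 and 575.6 at time 0, 813.2 and 559.7 at 10.5 days, and 5475 and 5653 at 16.5 days. At 10.5 days its arrays spanned the time 0 values, and over the stages Fech was 4.75-fold higher (2.25 ± 0.16, adjusted p = 9.81e-11, limma).

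Measured against regenerating liver at 48 to 72 h, the same 7 genes were raised on the probe sets used, and Alas1 was lowered. In this comparison 66.6% of all genes passed (35.7% raised, 30.8% lowered). The rises ran from 1.26 ± 0.22 for Cpox to 3.35 ± 0.24 for Ppox (log2; adjusted p = 2.89e-05 and 4.32e-11, limma). Every embryonic array exceeded every adult array for 2 of the 8 genes, Uros and Ppox, a pattern found in 15.2% of all genes. From 12.5 days on, every array exceeded every adult array for 7 of 8, where the share of all genes was 20.6%. The Ppox probe set, which counts in both patterns, has the highest mean of its gene through its embryonic values. Its group mean at time 0 was 35.86, against 128.6 and 69.3 on the other 2 Ppox probe sets. On those 2, adult and embryonic arrays overlapped. Against 48 to 72 h the one of second highest mean was lowered in the embryo (-0.55, adjusted p = 0.00623, limma), and the other changed by 0.09. No member had every embryonic array below every adult one (0 of 8, against 7.58% of all genes). Erythroid and hepatocyte marker sums moved in the same comparisons, as given above, and their part in the enzyme changes was not tested.

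The rise came mainly between 10.5 and 12.5 days. At 10.5 days 5 of the 8 enzymes did not pass against time 0: Alad (-0.55 ± 0.40), Urod (0.46 ± 0.22), Cpox (0.06 ± 0.38), Ppox (0.82 ± 0.41) and Fech (0.16 ± 0.21), with limma adjusted p from 0.0993 to 0.917. Alad passed as lowered after quantile normalization (-1.19, adjusted p = 0.00586), and without a single array Urod (of 48 h, lowest adjusted p = 0.0495) and Ppox (of 6 h, lowest adjusted p = 0.0399) passed as raised. Alas2 was raised 2.69-fold at that stage (1.43 ± 0.33, adjusted p = 0.00123), Uros 1.50-fold (adjusted p = 0.0236) and Alas1 was lowered 4.60-fold (adjusted p = 5.07e-06, limma). In this comparison 47.1% of all genes passed. The Uros call was lost when the first 10.5 day array, with the high Gapdh ratio, was left out (0.56, adjusted p = 0.0886), as also without the second (adjusted p = 0.0594) or the second time 0 array (adjusted p = 0.187), and after quantile normalization (0.40, adjusted p = 0.121) or with array weights (adjusted p = 0.0718). The embryonic globin genes Hbb-bh1 and Hba-x had their highest group means, 6404 and 7414, at this stage, and 21.21 and 71.85 at time 0.

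From 10.5 to 11.5 days, 5 of the 8 genes were raised, against 3.69% of all genes (7.76% passed in either direction). These were Cpox (1.62 ± 0.38, adjusted p = 0.00896), Alad (1.38 ± 0.40, adjusted p = 0.0382), Uros (1.37 ± 0.21, adjusted p = 0.000163), Fech (1.14 ± 0.21, adjusted p = 0.00118) and Urod (1.10 ± 0.22, adjusted p = 0.00291; all limma). Ppox changed by 1.30 ± 0.41 (adjusted p = 0.054) and Alas2 by 0.37 ± 0.33 (adjusted p = 0.586), neither past the threshold. Ppox passed with a constant of 64 (0.97, adjusted p = 0.00239), with the filter on low values (adjusted p = 0.0475) and without any 1 of 6 adult arrays of 6, 18 or 48 h (adjusted p = 0.0145 to 0.049). The Alad call was lost when its probe sets were averaged (0.43, adjusted p = 0.503) and without the second 10.5 day array (adjusted p = 0.111). The Alad and Cpox calls were lost without the first 10.5 day array (adjusted p = 0.141 and 0.0801), and those of Alad, Cpox and Urod without the first 11.5 day array (adjusted p = 0.379, 0.0862 and 0.0654).

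From 11.5 to 12.5 days, Alas2 rose 5.93-fold (2.57 ± 0.33, adjusted p = 3.9e-05, limma), with 763.6 the highest value before the step and 3066 the lowest after it. Fech (1.44 ± 0.21, adjusted p = 0.000129), Urod (1.09 ± 0.22, adjusted p = 0.00525) and Uros (1.07 ± 0.21, adjusted p = 0.00302) rose again, which made 4 of 8 raised against 2.70% of all genes (3.14% in either direction). The Urod call was lost without the second 11.5 day array (adjusted p = 0.106) or the first 12.5 day array (adjusted p = 0.104), and that of Uros without the second 11.5 day array (adjusted p = 0.115). Cpox changed by 0.37 ± 0.38 and did not pass. Ppox (1.29 ± 0.41, adjusted p = 0.105) passed with a constant of 64 (1.12, adjusted p = 0.000915), when its probe sets were averaged (0.60, adjusted p = 0.043), with array weights (adjusted p = 0.0463) and without either 6 h array (adjusted p = 0.0279 and 0.028). Uros did not pass when its probe sets were averaged (0.71, adjusted p = 0.0563). A fit of only the 4 arrays of a step called none of the 8 genes, and over all 18194 genes it called 0 at the first step and 10 at the second.

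After 12.5 days no enzyme passed in any of the 3 later steps (limma; also 0 of 8 at an unadjusted p under 0.05), in which 0.132%, 0.0495% and 0.0879% of all genes did. The genes differed in how their log2 rise from 10.5 to 16.5 days was divided. Cpox made 78.3% of it by 11.5 days and 18.0% in the next day, whereas Alas2 made 10.8% by 11.5 days and 75.3% in the next day. Alad (49.5% and 34.2%), Uros (50.4% and 39.3%), Urod (42.2% and 41.8%), Ppox (41.6% and 41.3%) and Fech (37.8% and 47.9%) lay between these 2 genes. The differences between genes in these shares were not tested. The other Cpox probe sets went on rising for longer, with group means at 11.5, 12.5 and 14.5 days of 839.8, 1378 and 1857 on one and of 96.64, 148.1 and 165.1 on the other. At 16.5 days they were 773.6 and 193. The whole rise was 10.6-fold for Alas2, 8.74-fold for Ppox, 8.08-fold for Fech, 6.89-fold for Alad, 6.57-fold for Uros, 6.12-fold for Urod, 4.20-fold for Cpox and 1.73-fold for Alas1.

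**Figure D3:**
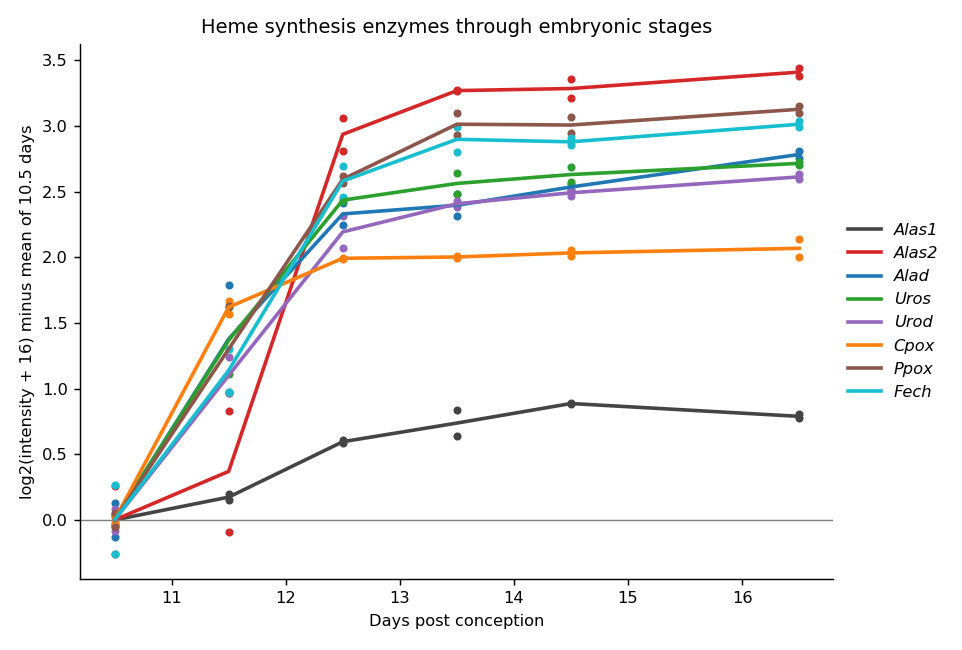
For each enzyme the log2(intensity + 16) at each embryonic stage is plotted minus its mean at 10.5 days; lines join group means and points are single arrays. Alas2 (red) is near its starting value at 11.5 days and above all the others from 12.5 days, Cpox (orange), on the probe set used, changes least after 11.5 days among the 7 genes that rise most, and Alas1 (dark grey) rises least.

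A linear trend over the stages was positive for all 8 genes, from 0.14 ± 0.05 per day for Alas1 (adjusted p = 0.0221) to 0.61 ± 0.05 per day for Alas2 (adjusted p = 3.28e-09, limma). All 8 passed, where 27.9% of all genes did and 16.4% were raised. The Alas1 call was lost without the stage of 10.5 days (0.11, adjusted p = 0.219) and without the first 10.5 day array or either 16.5 day array (adjusted p = 0.0662, 0.0798 and 0.0918). The Cpox trend was also lost without the stage of 10.5 days (0.07, adjusted p = 0.556). The F test over the 6 stages, which asks for any difference between them, called 7 of 8 genes (21.2% of all genes), with Alas1 not called at an adjusted p = 0.167.

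Several genes have further probe sets, and some of them differ from those used. A second Alas1 probe set had a group mean of 619.6 at time 0 and from 48.9 to 92.66 in the embryo. It fell further in the embryo (-2.89 against -1.67), and its trend over the stages was -0.075 in place of 0.145, so the direction of Alas1 within the embryo differs between its probe sets. A second Urod probe set (2.25), a second Uros one (1.12), 2 further Fech probe sets (2.10 and 1.46) and those of Cpox (1.26 and 1.55) rose in the embryo against time 0 (limma over all probe sets that name 1 gene, highest adjusted p = 0.00117). The other Alad probe set changed by 0.28, 1 further Fech probe set by 0.11, and the 2 further Ppox probe sets by -0.49 and 0.21, none past the threshold. Alas2 had 1 probe set.

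After hepatectomy, Alas1 RNA was 3.22-fold above time 0 at 1 h, 2.74-fold above it at 12 h and 2.84-fold below it at 48 h. Over the adult times the F test called 3 of the 8 genes, Alas1 (adjusted p = 3.08e-06), Ppox (adjusted p = 0.0106) and Fech (adjusted p = 0.0444, limma), where 18.2% of all genes passed. After quantile normalization it called 7 of the 8, a count for which no share of all genes is given here. Because every time is set against the same 2 time 0 arrays, the changes below share their controls.

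Alas1 intensity on the 2 arrays of a group was 2062 and 3237 after 1 h, 1134 and 1437 after 2 h, and 2287 and 1356 after 6 h. All 6 values exceeded the time 0 values of 987 and 632.9. In the mean of 1 to 6 h Alas1 was raised by 1.17 ± 0.26 (2.25-fold, adjusted p = 0.0226, limma), the only one of the 8 enzymes called, in a comparison in which 0.978% of all genes were, and 0.726% were raised. The call was lost after quantile normalization (0.85, adjusted p = 0.0596) and without any 1 of 4 arrays: the second of time 0 (0.85, adjusted p = 0.323), of 1 h (adjusted p = 0.067) or of 2 h (adjusted p = 0.0627), or the first of 6 h (adjusted p = 0.0629). Alas2 at 1 h was 220.4 and 450.9, against 138.5 and 156.4 at time 0, a change of 1.03 ± 0.33 that did not pass (adjusted p = 0.302, limma).

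Alas1 intensity was 2601 and 1857 at 12 h, falling to 2158 and 1090 at 18 h and to 498.5 and 533.7 at 24 h, before 815.5 and 1054 at 30 h. The 12 and 18 h values were all above time 0, while both 24 h values were below it and the 30 h values lay around the higher of the time 0 values. At 12 h the change was 1.46 ± 0.31 (adjusted p = 0.00477, limma), at a time at which 8.88% of all genes passed. It was lost without the second time 0 array (1.14, adjusted p = 0.0894) or the first 12 h array (1.22, adjusted p = 0.0506). In the mean of 12 to 30 h none of the 8 genes passed (0 of 8, with limma and also with each array left out in turn, where 4.79% of all genes were called, and 1 of 8 at an unadjusted p under 0.05), and Alas1 there was 0.51 ± 0.25 above time 0.

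Alas1 was 361.5 and 197.6 at 48 h and 536.3 and 433.7 at 72 h, all below both time 0 values. In the mean of both times it was lowered by a log2 change of -1.10 ± 0.27 (2.15-fold, adjusted p = 0.0288, limma), the only one of the 8 enzymes called, against 2.65% of all genes (0.638% lowered). Without the second 48 h array, which had the high Gapdh ratio, the change was -0.89 (adjusted p = 0.0649), and the call was also lost without the first time 0 array (-0.79, adjusted p = 0.354) and without the second 72 h array (-1.03, adjusted p = 0.0918) and with array weights (adjusted p = 0.167). At 48 h alone the change was -1.51 ± 0.31 (adjusted p = 0.0171, limma, 1.50% of all genes called). It was -1.10 without the second 48 h array and -1.19 without the first time 0 array, and neither was called. With array weights the 48 h change was not called (adjusted p = 0.802, limma). Both 48 h arrays had the same weight (0.223), as had the 2 arrays of each other group, so these weights could not single out the second array.

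**Figure D4:**
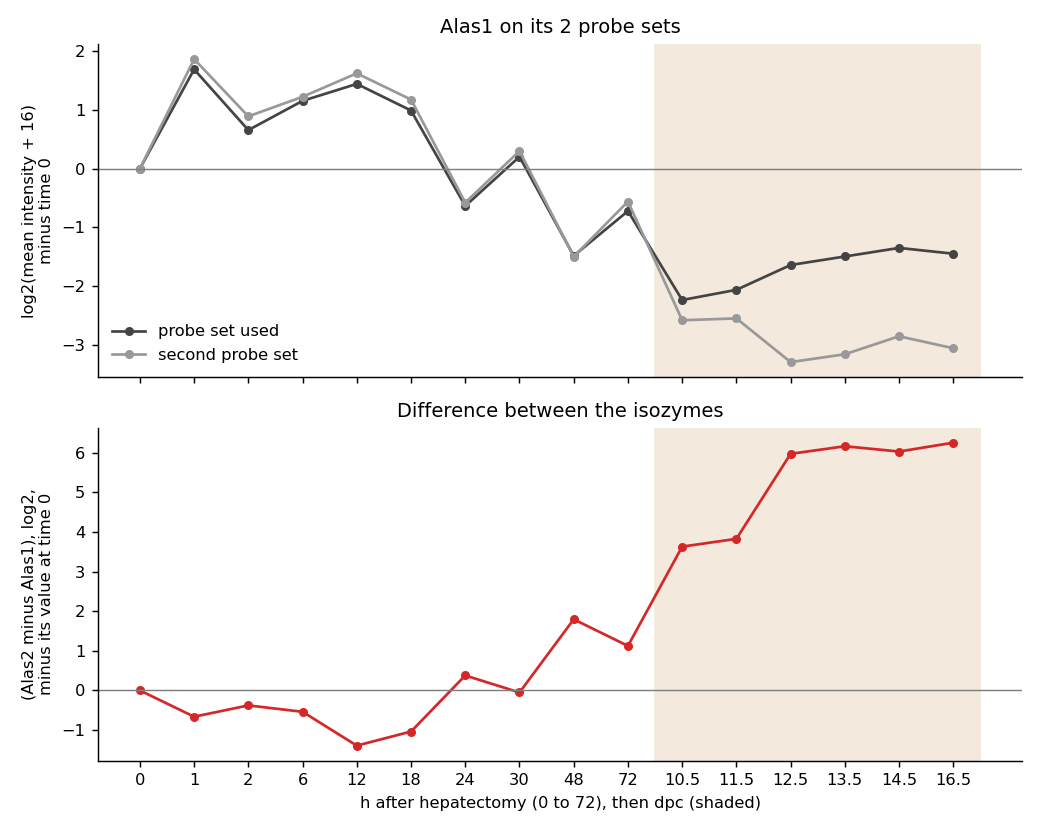
The upper panel plots log2(mean intensity + 16) minus time 0 for both Alas1 probe sets over the 10 adult times and 6 embryonic stages (days post conception, dpc, shaded); the probe sets follow each other in the adult and part in the embryo. The lower panel plots the difference between log2 Alas2 and log2 Alas1 minus its value at time 0, which is lowest at 12 h and highest at 16.5 days.

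Of all 72 pairs of a gene and a single time, 5 were called. Besides Alas1 at 1 h (1.69 ± 0.32, adjusted p = 0.00969, limma; 0.484% of all genes called), 12 h and 48 h, these were Uros and Ppox at 12 h. The 1 h call of Alas1 was lost after quantile normalization (1.15, adjusted p = 0.0557, limma). It was also lost without the second time 0 array (1.37) or the second 1 h array (1.36). Over all genes, 15.6% were called at 1 or more of the 9 times. At the times without a called enzyme the share of all genes was 0.572% (2 h), 2.12% (6 h), 7.73% (18 h), 1.25% (24 h), 0.352% (30 h) and 3.14% (72 h).

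At 12 h Uros was 120 and 89.15, both below the time 0 values, a log2 change of -0.75 ± 0.21 (adjusted p = 0.0239, limma). Without the second 12 h array, which had a high Gapdh ratio, the change was -0.57 (adjusted p = 0.256), without the first time 0 array -0.60 (adjusted p = 0.206), and with the mean of the Uros probe sets -0.20 (adjusted p = 0.646). Ppox was below 0 on both 12 h arrays (-16.16 and -0.6731), so its fitted change of -1.65 (adjusted p = 0.0127, limma) depends on the constant and is no measure of size. That call was lost without the second 12 h array (adjusted p = 0.0796), without the second time 0 array (-1.26, adjusted p = 0.16) and with a constant of 64 (adjusted p = 0.0511). The further Uros and Ppox probe sets of second highest mean changed by 0.34 and 0.28 at 12 h, in the opposite direction. Alad (-0.93 ± 0.40), Urod (-0.66 ± 0.22), Cpox (-0.50 ± 0.38) and Fech (-0.38 ± 0.21) did not pass at 12 h. The Fech values over all adult arrays ran from 389.8 at 18 h to 840.8 at 48 h.

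Ordered by group mean, Alas1 ran from 1 h through 12, 6, 18, 2, 30, 0, 24 and 72 h to the stages of 14.5 and 16.5 days, then 48 h, and ended with 13.5, 12.5, 11.5 and 10.5 days. Of its 15 neighbouring pairs in this order, 8 overlapped in their arrays. Alas2 ran from 16.5 days down through the stages to 10.5 days and then through the adult times from 1 h to 24 h. Of the 15 pairs 12 overlapped, and those that did not were 16.5 above 14.5 days, 13.5 above 12.5 days and 12.5 above 11.5 days.

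Across the 16 group means, which share time courses and arrays, Alas2 correlated with Urod and Fech at a Pearson r of 0.98, with Uros at 0.97, with Ppox at 0.95, with Alad at 0.89 and with Cpox at 0.87. Among 10132 genes ordered by their correlation with Alas2, Urod ranked 31, Fech 44, Uros 87, Ppox 246, Alad 984 and Cpox 1266, so many other genes were as close. Alas1 correlated with the other enzymes at -0.54 to -0.67, at ranks from 6039 to 7477. The genes whose 16 group means were most like those of Alas2, by Pearson r among 10132 genes, were Pip5k1b (0.993), Ercc1 (0.991), Tmcc2, Arid3a and Spsb1 (each 0.99). Tmcc2, for example, was 220.7 at 11.5 days and 2743 at 12.5 days. Those most like Alas1 were Cntfr (0.955), Zfp36 (0.929), which encodes an mRNA decay factor, Sqstm1 (0.917), BC034090 (0.915) and Vpreb1 (0.913). Zfp36 had group means of 398.8 before the operation, 1357 at 1 h, 809.1 at 12 h and then 297.6 at 48 h.

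Among other genes of heme synthesis and transport, 15 of the 29 measured were raised in the embryo against time 0 (30.9% of all genes), 3 were lowered (24.8%) and 11 did not pass, with a median change of 0.64 against 0.02 over all genes. Slc25a37, the mitochondrial iron importer mitoferrin 1, was 133.9 at time 0, 456.2 at 10.5 days, 1304 at 11.5 days and 4857 at 12.5 days, a change of 4.23 ± 0.21 (adjusted p = 3.52e-13, limma). Abcb10, a mitochondrial transporter of red cell precursors, rose by 3.37 ± 0.19, Glrx5, an iron-sulfur cluster protein, by 2.06 ± 0.29 and Slc25a38, the mitochondrial glycine carrier, by 1.13 ± 0.11. Tspo2 rose by 3.50 ± 0.32, from adult group means of at most 24.69, so its size depends on the constant. Over the stages 18 of the 29 rose and 0 fell, where 16.4% of all genes rose.

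After hepatectomy 1 of these 29 genes was raised at 1 to 6 h, where 0.726% of all genes were raised. This gene was Clpx, a mitochondrial unfoldase that acts on 5-aminolevulinate synthase. It was 466.5 at time 0 and 1388 at 1 h, and its change over 1 to 6 h was 1.10 ± 0.23 (adjusted p = 0.0141, limma). The heme exporter Flvcr1 was raised at 12 to 30 h (0.57 ± 0.14, adjusted p = 0.0219, limma), where 4.79% of all genes passed. None of the 29 passed at 48 to 72 h (limma), where 2.65% of all genes did, and 5 had an unadjusted p under 0.05. Tfrc, the transferrin receptor, which brings iron into the cell, was lowered at 48 to 72 h (-1.55 ± 0.28, adjusted p = 0.00196, limma) and raised in the embryo against time 0 by 2.56 ± 0.24 (adjusted p = 9.25e-09, limma).

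Of 19 genes known to regulate the first enzyme, 10 were raised in the embryo against time 0, 7 were lowered and 2 did not pass, with a median of 0.28 (0.02 over all genes, of which 30.9% were raised and 24.8% lowered). The erythroid transcription factors Klf1 (4.97 ± 0.18), Tal1 (4.77 ± 0.13), Nfe2 (3.67 ± 0.15) and Gata1 (2.88 ± 0.11) were among those raised. Gata1 was 132.8 at time 0, 365 at 10.5 days, 987.9 at 11.5 days and 1357 at 12.5 days. Eif2ak1, the heme-regulated kinase of translation, rose by 2.33 ± 0.16. Nr1i3, the drug-sensing nuclear receptor CAR, was 582.3 at time 0 and at most 14.57 in the embryonic group means, a change of -4.52 ± 0.32 (adjusted p = 1.05e-10, limma).

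In the adult, 1 of these 19 was raised at 1 to 6 h and 1 lowered, where 0.978% of all genes passed and 0.726% were raised. Ppargc1a, the fasting-responsive coactivator known to act on the Alas1 gene, had a group mean of 60.62 before the operation, of 67.92 after 1 h, of 98.23 after 2 h and of 142.8 after 6 h (0.58 ± 0.12 over 1 to 6 h, adjusted p = 0.0149, limma). Nr1d2, a heme-binding repressor of the circadian clock, was lowered over the same times (-1.04 ± 0.19, adjusted p = 0.00435, limma). Its relative Nr1d1 had its lowest adult mean, 17.48, at 48 h and its highest, 155.4, at 6 h, with 134.2 at time 0, and was lowered at 48 to 72 h (-1.75 ± 0.29, adjusted p = 0.000935, limma). Of 12 clock genes, 2 were raised and 2 lowered at 48 to 72 h, where 2.65% of all genes passed. The part of these clock genes, or of the time of day of sampling, in the Alas1 changes was not tested.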

How the data were processed

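RNA of 32 pools (6 microg of total RNA each) was measured on single-colour Affymetrix arrays. The deposited values are probe set intensities on a linear scale; no source used here names the software or normalization of the authors. Groups follow the source name, since the age and description fields of the embryonic samples conflict with it. The deposited scaling was kept (75th percentiles of the arrays spanned 0.374 on the log2 scale). Tests used log2(value + 16), with negative values raised to 0.

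Of 45101 probe sets, 34958 name 1 gene, which gave 18194 genes; the probe set of highest mean stood for a gene. All 32 arrays entered a fit of group means in R 4.3.3 with limma 3.58.1 (lmFit, eBayes with trend; 16 residual and 4.72 prior degrees of freedom), with Benjamini-Hochberg adjustment over all genes and a threshold of 0.05. Errors are SE of this fit unless given as SD. The fit was tested on simulated data. The 8 members, the gene lists (157 of 169 genes measured) and the rule for named genes (all members, the 5 genes most like each first-step isozyme, up to 4 called genes of a list with the largest change, and 10 set genes) were chosen with earlier results of these data known. The comparisons of neighbouring stages and of 10.5 days with time 0 were added after the data were seen. The number of arrays limits the precision.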

Additional observations from a re-analysis of the deposited data

How the results depend on the processing

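The counts of members called in the embryo against time 0 (8) and against 48 to 72 h (8) kept within 1.5 times under each alternative run. They include calls in either direction, so a member called in the reversed direction still counts, as Ppox did against 48 to 72 h on its second probe set. Quantile normalization gave 7 members in the F test over the adult times, 0 at 1 to 6 h and 11 pairs of a gene and a single time. Alas1 at 1 h was not among these pairs (1.15, adjusted p = 0.0557, limma). No share of all genes is given for these counts, so they cannot be set against one. The normalization moved the median change of all genes in the embryo against time 0 from 0.02 to -0.07. The mean of a gene's probe sets gave 3 pairs. Array weights, which were equal for the 2 arrays of each group, gave 0 members at 48 to 72 h and 3 pairs. A fit of only the arrays compared gave 1 member in the F test over the adult times, 0 at 1 to 6 h, 0 at 48 to 72 h, 0 at each of the 2 early embryonic steps and 0 pairs. Over all genes that fit called 1619, 79, 0, 0 and 10 in these 5 tests, from fewer arrays to estimate the spread. A constant of 64 gave a slope of Alas2 minus Alas1 of 0.47 per day (exact permutation p = 0.0472).

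Chosen after seeing the data, leaving out the 4 arrays of high Gapdh ratio gave 0 members at 48 to 72 h and a slope of 0.50 (exact permutation p = 0.0403). Also chosen then, the second probe set of each member gave 5 members in the trend, 4 in the F test over the stages, 3 from 10.5 to 11.5 days and 2 from 11.5 to 12.5 days. With it Alad was not called in the embryo against time 0 (0.28, adjusted p = 0.456, limma). This choice reversed Ppox in the embryo against time 0 (-0.49, adjusted p = 0.0647) and against 48 to 72 h, where it passed as lowered (-0.55, adjusted p = 0.00623, limma). Also reversed were the Alas1 trend (-0.075), Alad from 10.5 to 11.5 days (-0.53), and Uros (0.34) and Ppox (0.28) at 12 h. Cpox at 10.5 days was reversed and passed as lowered against time 0 (-0.85, adjusted p = 0.00573, limma). The cause was not tested.

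Leaving out each array in turn gave 8 to 8 members in the embryo against time 0, 7 to 8 against 48 to 72 h, 7 to 8 in the trend, 7 to 7 in the F test over the stages, 1 to 6 in the F test over the adult times, 0 to 1 at 1 to 6 h, 0 to 0 at 12 to 30 h, 0 to 1 at 48 to 72 h, 2 to 4 at 10.5 days against time 0, 2 to 6 from 10.5 to 11.5 days, 2 to 5 from 11.5 to 12.5 days and 2 to 10 pairs. Where this leaves 1 array in a group, that array is assumed to vary like the other groups. Alas2 minus Alas1 stayed between 5.31 and 5.47, with a slope of 0.43 to 0.50 (exact permutation p = 0.0333 to 0.075). The deviations of same-numbered arrays had a median correlation of -0.006 over 120 pairs of groups (-0.357 to 0.555, 17 over 0.1). A median near 0 cannot exclude that the numbers pair the samples of some groups. With the replicate block 5 pairs of a gene and a single time and 8 members in the embryo against time 0 were called. Of 77 results of single members, 29 kept their call and direction under each setting run. Low intensity limits Ppox in the adult, where 3 values were below 0.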

Other observations

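Genes of heme-carrying liver enzymes were lower in the embryo, where most heme synthesis enzymes were higher. Of 16 measured liver hemoproteins, 13 were lowered in the embryo against time 0, 2 were raised and 1 did not pass, with a median log2 change of -4.32. Over all genes 24.8% were lowered. Hepatocyte markers were lowered in the same comparison (9 of 13, median -3.76), and their part was not tested. Cyp2e1, a cytochrome P450 of ethanol and ketone metabolism, had a group mean of 6140 at time 0 and values from 50.05 to 93.22 on the embryonic arrays (-6.22 ± 0.16, adjusted p = 1.09e-17, limma). Cyp3a11, a drug-metabolising P450, was 5560 at time 0, 23.41 at 10.5 days and 149.9 at 16.5 days. Tdo2, a heme enzyme of tryptophan breakdown, was 2575 at time 0 and at most 25.2 on an embryonic array. None of the 16 passed at 1 to 6 h or at 48 to 72 h (0 of 16, limma), where 0.978% and 2.65% of all genes did. An unadjusted p under 0.05 was found for 5 and 3 of them.

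Genes of heme breakdown and scavenging did not move one way: of 9 measured, 3 were raised and 5 lowered in the embryo against time 0 (30.9% and 24.8% of all genes). Blvrb, a biliverdin reductase of red cells and fetal liver, was 480.4 at time 0, 260 at 10.5 days, 1402 at 11.5 days and 4003 at 16.5 days (2.02 ± 0.28 over the stages, adjusted p = 2.68e-06, limma). Hmox1, heme oxygenase 1, was raised by 0.65 ± 0.13 (adjusted p = 0.000159, limma). The plasma scavengers haptoglobin (Hp, -6.39 ± 0.19) and hemopexin (Hpx, -2.68 ± 0.20) were lower in the embryo, and both were raised at 12 to 30 h after hepatectomy (0.93 ± 0.20, adjusted p = 0.00716, and 0.79 ± 0.21, adjusted p = 0.0266, limma).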
